A study of Mus musculus with 8 samples.

Results

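The genes described here carry the symbols of proteins of the cytosolic ribosome. They were chosen by symbol, as every gene whose name starts with Rpl or Rps and a digit, together with Rplp0, Rplp1, Rplp2 and Rpsa. Kinases and binding proteins that share these letters and symbols with the pseudogene mark -ps were left out. The rule found 80 of the 13937 genes in the count table, 48 with large-subunit symbols and 32 with small-subunit symbols. Of these, 40 are core proteins of the large subunit, 3 form its stalk, 30 are core proteins of the small subunit, and 7 are paralogs or retrocopies by symbol (Rpl7l1, Rpl22l1, Rpl36al, Rpl37rt, Rpl39l, Rps4l and Rps27l). Rpl37rt and Rps4l are transcribed processed pseudogenes in the reference annotation but were kept by symbol. The symbols Rps27, Rpl26, Rpl30 and Rpl34 were not analysed here.

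Bulk RNA was sequenced from primary brain astrocytes of pups aged 1 day, all on a C57BL/6 background. WT littermates and pups lacking RGC-32 (gene Rgcc), an intracellular protein of the TGF-β pathway, gave WT and RGC-32 KO cultures. All cultures were deprived of serum overnight and then received TGF-β at 10 ng/ml for 24 h or were left untreated. Untreated cultures are called control. There were 2 biological replicates in each of the 4 groups, hence 8 libraries, and how many pups stood behind a library is not given in the sources used here.

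Each cytosolic ribosome holds 1 copy of most of these proteins beside its rRNA, and the stalk proteins recruit the factors that drive translation. Vertebrate ribosomal protein mRNAs begin with a stretch of pyrimidines, the terminal oligopyrimidine motif, through which mTOR and the RNA-binding protein LARP1 set how strongly they are translated. Much of their known control therefore acts on translation, which counts of mRNA do not measure. Many of these genes also have processed pseudogenes, so reads can match more than 1 place in the genome.

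RefSeq start sites on GRCm38.p6 were at hand for 59 of the 79 genes that could be tested. A run of at least 8 C or T on the coding strand lay within 50 bases of a start in 48 of the 59 (81.4%), against 39.3% of all 27025 genes of that promoter table. The windows shown, of at most 30 bases, belong to the 4 genes with the largest and the 4 with the smallest mean response to TGF-β among those with such a run (Rps14 and Rpl17 were not considered), so that both ends of the response can be seen. Capitals mark the run.
Rps16, chr7:28350631-28350660, plus strand: caattcacacgTCCCCTCTCaggcttcgac
Rps2, chr17:24720093-24720112, plus strand: ttccgcggcgCCTCCCTCTT
Rpl36al, chr12:69184020-69184049, minus strand: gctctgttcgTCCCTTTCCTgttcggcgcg
Rps27l, chr9:66946053-66946082, plus strand: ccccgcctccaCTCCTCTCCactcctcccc
Rpl22, chr4:152325679-152325708, plus strand: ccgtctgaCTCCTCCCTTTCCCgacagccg
Rpl22l1, chr3:28805499-28805528, plus strand: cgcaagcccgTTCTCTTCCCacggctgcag
Rps15, chr10:80292446-80292475, plus strand: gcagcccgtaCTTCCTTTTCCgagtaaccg
Rpl6, chr5:121204522-121204550, plus strand: gctgccttagTTCTCTTTCCCgtcttgca
The run began between 47 bases before the annotated start base, in Rps16, and 40 bases after it, in Rps2. Where a gene had several starts, that with the longest run was taken. The start taken for Rps2 lies inside the gene, whose first base is chr17:24718116. Its run reaches the last base searched, so it may be cut off. Whether the mRNA begins at such a run was not tested. Genes with and without a run had median log2 fold changes of 0.06 (48 genes) and 0.01 (11 genes) in WT, and of 0.11 and 0.13 in RGC-32 KO. These medians were not taken without each RGC-32 KO control library, and no difference between the genotypes is read from them.

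Total counts on genes ran from 14920561 to 18956038 per library. The ribosomal protein genes took 1.90% of the counts in each WT control library and 1.76% and 1.79% in those of WT with TGF-β. In RGC-32 KO they took 2.04% and 1.77% without TGF-β and 1.89% and 1.85% with it. The RGC-32 KO control libraries lay farthest apart, 0.262 percentage points. All 79 genes tested were higher in replicate 1 of that group than in replicate 2, by 0.06 to 0.51 on the log2 scale and by 0.23 at the median, while 50.09% of all genes tested were. In the other groups, 45 of 79 (WT control), 10 of 79 (WT TGF-β) and 55 of 79 (RGC-32 KO TGF-β) were higher in replicate 1. Both subunits shared this pattern, as the ratio of large-subunit to small-subunit counts stayed between 1.46 and 1.49 in every library. Between the same RGC-32 KO control libraries, replicate 1 minus replicate 2, summed marker genes differed on the log2 scale by -0.48 for neurons, -0.26 for endothelial cells, -0.17 for astrocytes, -0.16 for ependymal cells, -0.08 for proliferation, -0.04 for the oligodendrocyte lineage, 0.12 for meningeal fibroblasts and 0.14 for microglia. The astrocyte markers did not move together. Gfap, the largest, had 1903 CPM in replicate 1 and 2650 in replicate 2. Aldoc, Aldh1l1, S100b, Sox9 and Gja1 were also lower in replicate 1, while Aqp4 (1104 and 1060), Slc1a3, Slc1a2 and Glul were higher. Most of the neuron sum was Stmn2, at 75.15 and 107.2 CPM. The trend of counts with transcript length, read at the median ribosomal protein gene, was 0.086 in replicate 1 and -0.0328 in replicate 2. The part of these in the difference was not tested. For the RGC-32 KO response, the number called and the median over the genes tested are therefore given with and without each control library. These were 79 genes, or 80 where Rpl39l passed the filter on low counts. So are the fold changes of most ribosomal protein genes named. Medians of subsets, counts by direction or overlap and fold changes in the lists of other genes are not.

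**Figure D1:**
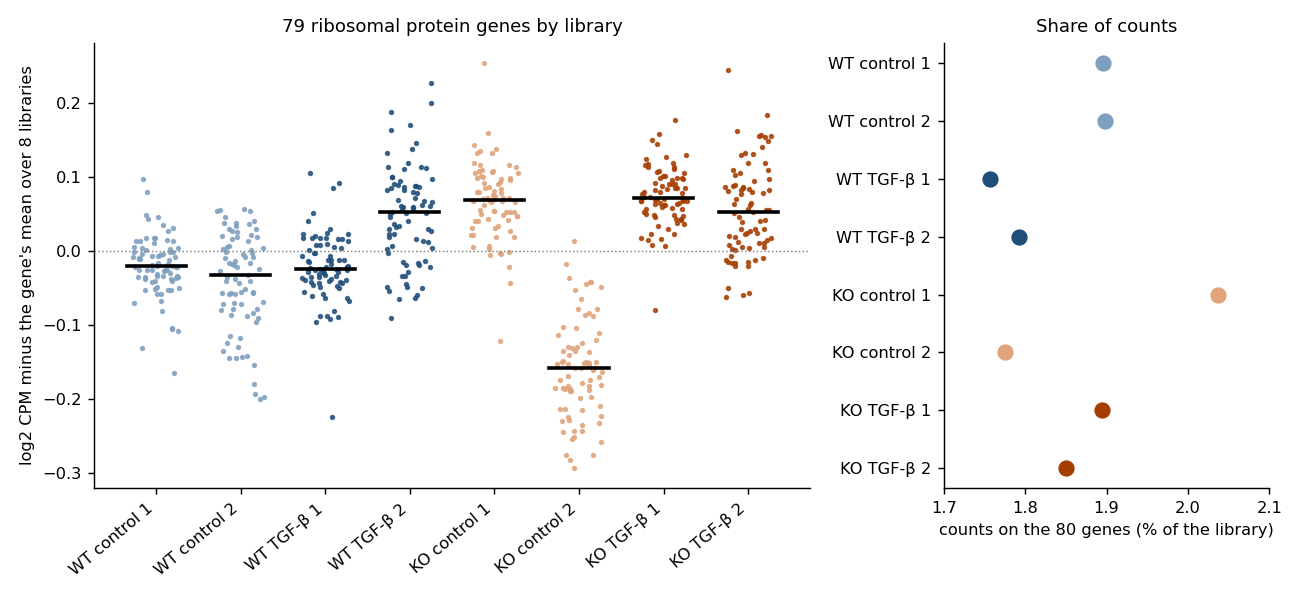
The left panel plots, for each of 8 libraries, the log2 CPM (counts relative to the size of the library as scaled by TMM) of 79 ribosomal protein genes minus each gene's mean over the libraries, with 1 point per gene and a bar at the median; the right panel gives the share of all counts on the 80 genes in percent. RGC-32 KO control replicate 2 lies lowest at the left, with a median of -0.16, and replicate 1 of the same group has the highest share, 2.04%.

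Levels were compared between genes per length, in the authors' FPKM (fragments scaled to the length of the transcript and the size of the library). The highest median FPKM over the 8 libraries was that of Rplp1, a stalk protein, at 1145 (1081 to 1244), followed by Rpl41, the smallest protein of the ribosome, at 993 (967 to 1096), and by Rps14 at 603 (554 to 705). The ranges of Rplp1 and Rpl41 overlapped, while both lay above the range of Rps14. The lowest levels were those of Rps15a at 19.9 (18.7 to 23.0), Rps4l at 14.7 (13.7 to 15.5) and Rpl39l at 0.296 (0.142 to 0.753). The values of Rps15a, Rps20 and Rpl22 rest on long annotated transcripts. The reference lists 5130 bases for Rps15a against 640 for its shortest principal transcript, and Rps15a had a median of 2610.5 counts, against 190.5 for Rps4l and 4.0 for Rpl39l. No gene had a count of 0 in any library, and Rpl39l, with 2 to 11 counts, was the gene that could not be tested in the reported fit.

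**Figure D2:**
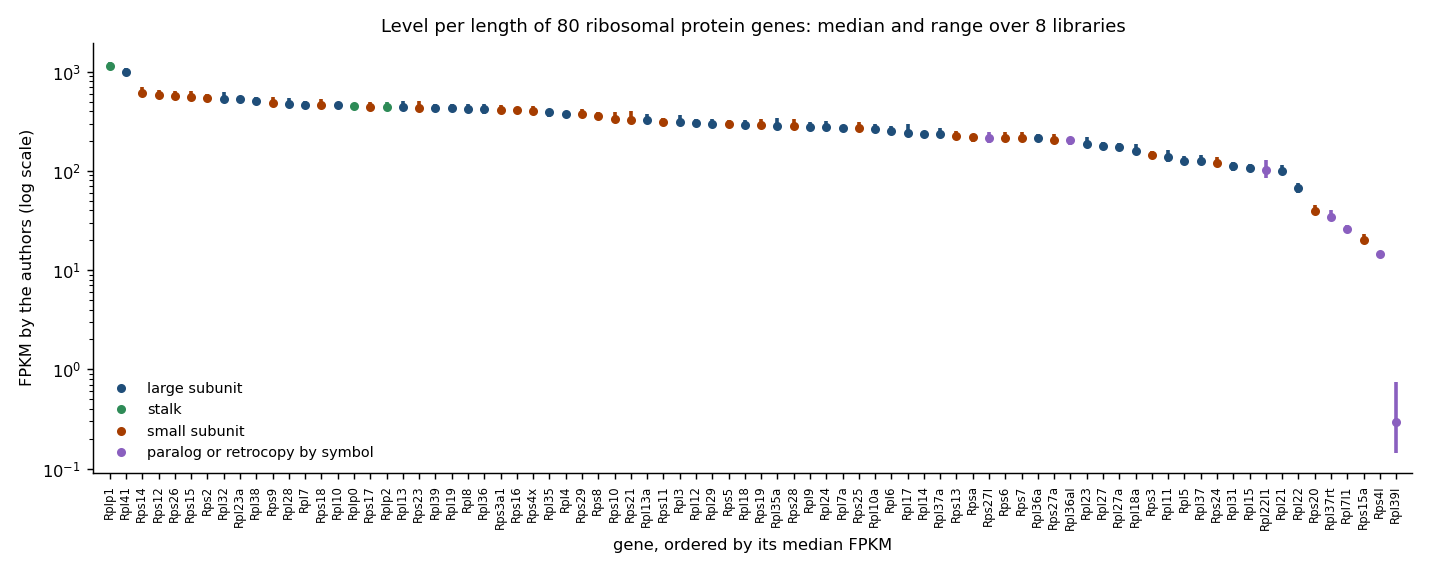
Each of the 80 ribosomal protein genes is plotted at its median FPKM (authors' values, log scale) with a line from the lowest to the highest of 8 libraries, ordered by level and coloured by role. Rplp1 and Rpl41 stand above the rest at 1145 and 993, and the 6 lowest genes are Rpl39l, Rps4l, Rpl7l1 and Rpl37rt, all paralogs or retrocopies, with Rps15a and Rps20, down to 0.296 for Rpl39l.

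TGF-β moved few of these mRNAs in WT astrocytes. Of 79 genes tested, 1 rose (Rps2) and 0 fell at an adjusted p under 0.05 (edgeR's quasi-likelihood test with Benjamini-Hochberg adjustment over 13509 genes), whereas 18.6% of all genes tested rose and 14.3% fell. At the study's threshold, a log2 fold change of at least 0.6 in either direction, 0 of 79 passed, against 7.72% of all genes above and 5.65% below it. An unadjusted p under 0.05 was reached by 4 of 79 genes, all higher with TGF-β, against 44.3% of all genes. The median log2 fold change was 0.04 over the 79 genes and -0.005 over all genes tested, and the SD over genes was 0.0844 and 0.573. The 95% interval of every one of the 79 lay within 0.6 of no change, from -0.50 (Rpl22l1) to 0.53 (Rps2), and those of 62 lay within 0.3. In bulk samples, a change in the number of cells of a type and a change in the RNA per cell cannot be told apart.

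Rps2, a protein at the mRNA entry of the small subunit (chr17:24718116-24721929, plus strand, GRCm38), had 416.0 and 406.1 CPM in WT control and 473.7 and 545.4 CPM in WT TGF-β. Both TGF-β libraries lay above both controls. The log2 fold change was 0.31 (SE 0.0952), with an adjusted p of 0.0399 (edgeR). In RGC-32 KO astrocytes it had 472.5 and 406.8 CPM in control and 503.2 and 529.7 CPM with TGF-β, again without overlap, and the log2 fold change of 0.23 (SE 0.0952) had an adjusted p of 0.105 (0.33 without control replicate 1 and 0.13 without replicate 2, neither past the test). Its call in WT was held in 12 of 24 alternative settings, with adjusted p between 0.0073 and 0.273, and the log2 fold change stayed above 0 in all of them (0.16 to 0.41). It was lost without either WT control library, WT TGF-β replicate 2 or either RGC-32 KO TGF-β library, and the test then called 0 of the 79 genes higher, while it called 4 without RGC-32 KO control replicate 1 and 5 without replicate 2.

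In RGC-32 KO astrocytes, 1 of the 79 genes rose with TGF-β (Rps16) and 0 fell, against 16.6% and 11.8% of all genes tested. None passed the threshold of 0.6, against 6.61% above and 4.93% below it. An unadjusted p under 0.05 was reached by 9 genes, all higher with TGF-β, against 41.2% of all genes. The median log2 fold change was 0.10, against 0.003 over all genes. All 79 intervals lay within 0.6 of no change and 38 within 0.3. The count rested on the RGC-32 KO control libraries. Without their replicate 1 the test called 27 genes higher, with a median of 0.21, and without their replicate 2 it called 0, with a median of -0.02. It also called 0 without WT control replicate 2 or any 1 of the 4 TGF-β libraries. In each of these fits 0 genes were lower.

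Rps16, a protein of the small subunit near the decoding site (chr7:28350652-28353155, plus strand), had 243.8 and 201.0 CPM in untreated RGC-32 KO libraries and 271.5 and 288.3 CPM in treated ones. Both TGF-β libraries were above both controls. The log2 fold change was 0.33 (SE 0.0932), adjusted p = 0.0324 by edgeR. Without RGC-32 KO control replicate 1 it was 0.46 with an adjusted p of 0.0117, and without replicate 2 it was 0.20 with an adjusted p of 0.121. In WT, 222.3 and 218.8 CPM in control stood beside 247.5 and 266.8 CPM with TGF-β, and the log2 fold change of 0.22 (SE 0.0931) had an adjusted p of 0.105. No difference between genotypes in the response of Rps2 or Rps16 was detected (edgeR), with interaction log2 values of -0.08 (95% interval -0.39 to 0.23) and 0.11 (-0.19 to 0.41). Those intervals leave room for a difference about as large as either response.

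**Figure D3:**
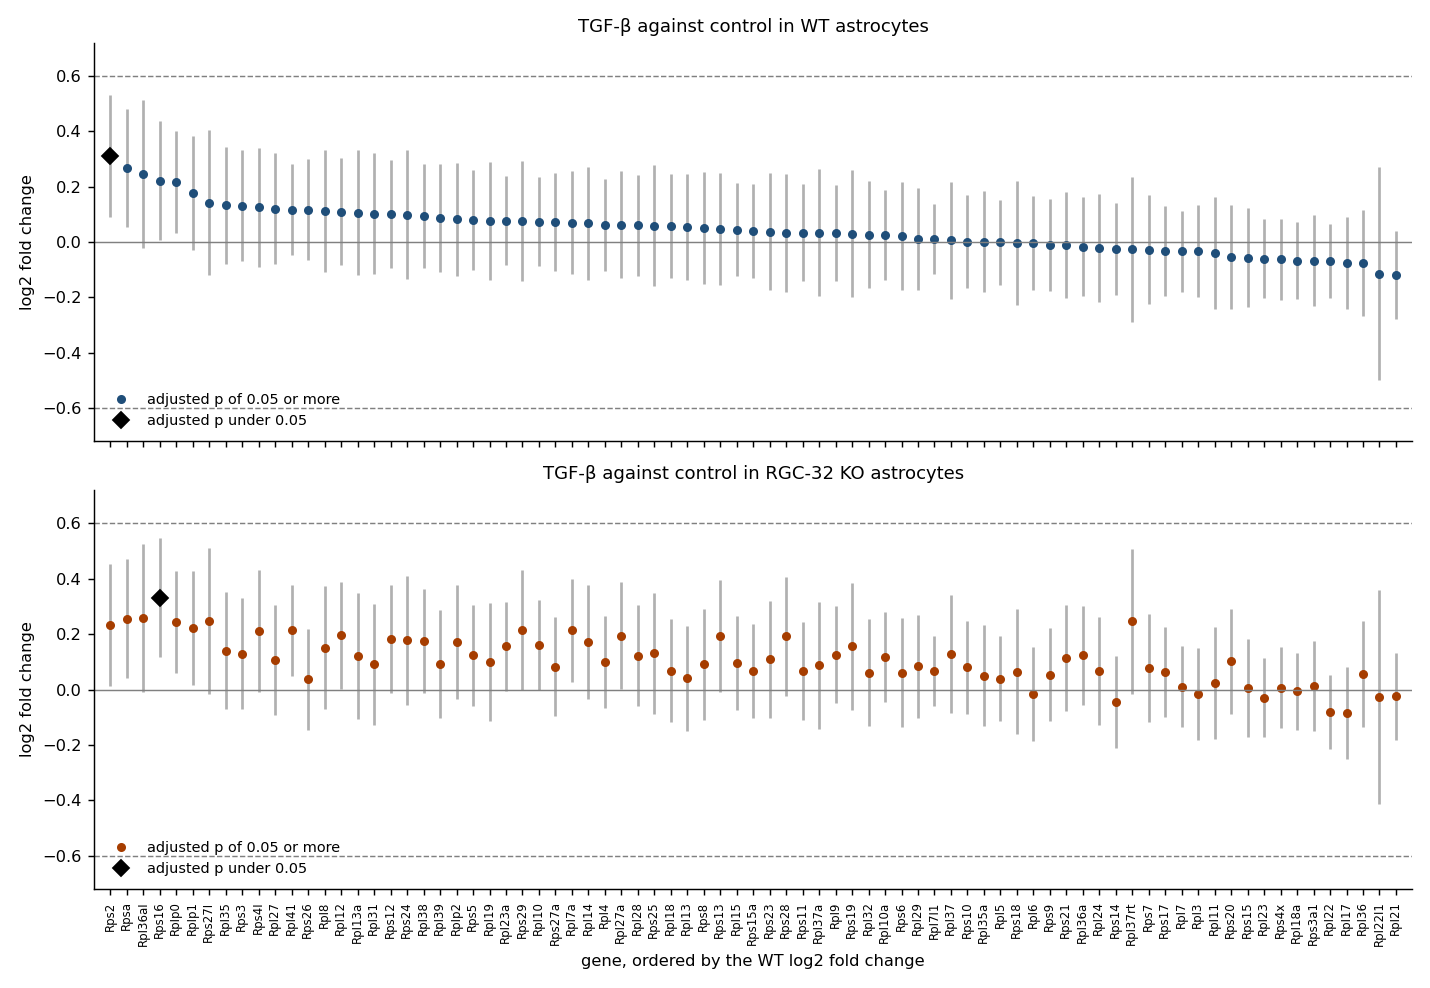
Each point is the log2 fold change of 1 of 79 ribosomal protein genes for TGF-β against control in WT (top) and RGC-32 KO astrocytes (bottom), in the order of the WT values, with its 95% interval; black diamonds mark an adjusted p under 0.05 and dashed lines the values 0.6 and -0.6. Rps2 at the top and Rps16 at the bottom are the genes past that p, and no interval reaches a dashed line.

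The TGF-β libraries of WT lay both above both controls in 29 of 79 genes and both below in 10, against 35.4% and 33.7% of all genes tested. In RGC-32 KO these were 27 and 0 of 79, against 34.3% and 32.9%. The fold changes were above 0 in both genotypes for 54 genes, below 0 in both for 9, and above 0 in RGC-32 KO alone for 16. Across the 79 genes, the log2 fold changes of the genotypes, which share no library, had a Pearson's r of 0.78 and a Spearman's rho of 0.77. Over all 13509 genes r was 0.91. The points share 1 fit and 1 scaling of libraries, and genes are not independent replicates.

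The direction of the median depended on how libraries were scaled. With total counts alone, the median over all genes moved to -0.15 in WT and -0.13 in RGC-32 KO, and the ribosomal protein genes moved with it, to -0.11 and -0.03. The edgeR test then called 0 higher and 8 lower in WT, and 0 higher and 2 lower in RGC-32 KO. Relative to the median of all genes, the ribosomal protein genes stood at 0.04 in WT and 0.10 in RGC-32 KO under either scaling. With the trend of counts on transcript length removed from each library, the test called 11 genes higher in WT and 16 in RGC-32 KO and 0 lower in both, with medians of 0.12 and 0.12.

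**Figure D4:**
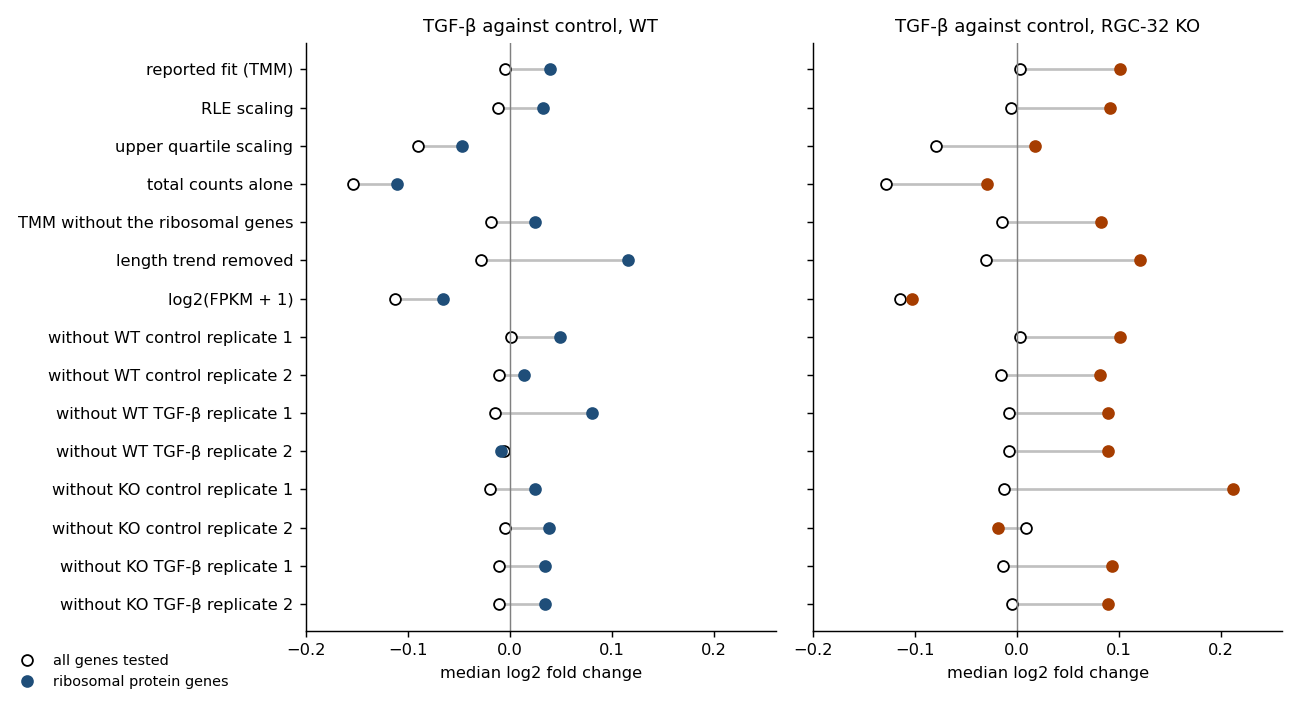
Filled points give the median log2 fold change of TGF-β against control over the ribosomal protein genes and open points that over all genes tested, in WT (left) and RGC-32 KO astrocytes (right), for the reported fit and the alternatives named at the left. The open and filled points move together under the scalings of counts (RLE, upper quartile, total), which shift all genes of a library alike. The filled point in RGC-32 KO runs from 0.21 without control replicate 1 to -0.02 without control replicate 2.

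The stalk of the large subunit is built on Rplp0, to which Rplp1 and Rplp2 bind. Of these 3 genes, 0 passed the test in either genotype, although all 3 had both TGF-β libraries above both controls in each. Rplp0 had 642.2 and 657.6 CPM in WT control and 736.0 and 773.3 in WT TGF-β. The RGC-32 KO values were 670.1 and 583.4 without and 744.1 and 741.3 with TGF-β. Its log2 fold changes were 0.22 (95% interval 0.03 to 0.40, adjusted p = 0.0724 by edgeR) in WT and 0.24 (0.06 to 0.43, adjusted p = 0.0538) in RGC-32 KO. Rplp1 had log2 fold changes of 0.18 and 0.22, and Rplp2 of 0.08 and 0.17. The RGC-32 KO values rested on the control libraries. Without control replicate 1 they were 0.33 for Rplp0, 0.33 for Rplp1 and 0.30 for Rplp2, all past the test, and without replicate 2 they were 0.15, 0.11 and 0.03, with 0 past it. With the length trend removed, Rplp0 and Rplp1 passed edgeR's test in both genotypes, with adjusted p from 0.0158 (Rplp1 in WT) to 0.0254 (Rplp0 in RGC-32 KO).

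Among the 30 core proteins of the small subunit, Rps2 in WT and Rps16 in RGC-32 KO were those that rose, and the median log2 fold changes were 0.04 and 0.10. Rpsa, which also serves as a laminin receptor at the cell surface, came next. It had 411.8 and 400.2 CPM in WT control and 469.3 and 508.2 in WT TGF-β. The RGC-32 KO libraries had 440.9 and 365.6 CPM untreated and 478.5 and 484.4 treated. Its groups did not overlap in either genotype, and its log2 fold changes of 0.27 (0.05 to 0.48, adjusted p = 0.0589, edgeR) and 0.26 (0.04 to 0.47, adjusted p = 0.0744) missed the threshold. In RGC-32 KO it passed without control replicate 1 (0.38) and not without replicate 2 (0.13). Rps6, which is phosphorylated by kinases downstream of mTOR, had overlapping groups and log2 fold changes of 0.02 (-0.18 to 0.22) and 0.06 (-0.13 to 0.26), the latter 0.17 without control replicate 1 and -0.06 without replicate 2. Rps19, whose human counterpart is mutated in Diamond-Blackfan anaemia, had 0.03 and 0.16, and the latter was 0.30 without control replicate 1, past the test, and 0.01 without replicate 2. Rps27a, which is made as a fusion with ubiquitin, had 0.07 and 0.08, the latter 0.18 and -0.02 in the same fits. The lowest of the small subunit was Rps3a1 in WT (-0.07) and Rps14 in RGC-32 KO (-0.04).

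Among the 40 core proteins of the large subunit, 0 passed in either genotype. Their log2 fold changes ran from -0.12 to 0.13 in WT, with a median of 0.04, and from -0.08 to 0.21 in RGC-32 KO, with a median of 0.09. Rpl5 and Rpl11, which together with an rRNA can bind the p53 regulator MDM2, had overlapping groups in both genotypes. Rpl5 had 257.8 and 260.8 CPM in WT control and 258.3 and 260.0 in WT TGF-β, a log2 fold change of -0.001 (-0.15 to 0.15), and 0.04 in RGC-32 KO. Rpl11 had -0.04 and 0.03. Rpl13a had 0.11 and 0.12. In RGC-32 KO, without control replicate 1 and then without replicate 2, Rpl5 had 0.10 and -0.04, Rpl11 0.15 and -0.10, and Rpl13a 0.27 and -0.02, of which the 0.27 passed the test. Rpl41 had 250.5 and 239.5 CPM in WT control and 266.2 and 265.3 in WT TGF-β. For RGC-32 KO these were 268.7 and 235.8 without and 290.8 and 294.2 with TGF-β. Control and TGF-β libraries were apart in both genotypes, and the log2 fold changes were 0.12 (-0.05 to 0.28) and 0.21 (0.05 to 0.38, adjusted p = 0.0576 by edgeR). The latter was 0.29 without control replicate 1, past the test, and 0.12 without replicate 2. Rpl21 was the lowest in WT, at 245.2 and 245.5 CPM in control and 223.6 and 228.2 with TGF-β, and its log2 fold change of -0.12 (-0.28 to 0.04) had an adjusted p of 0.218 (edgeR).

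**Figure D5:**
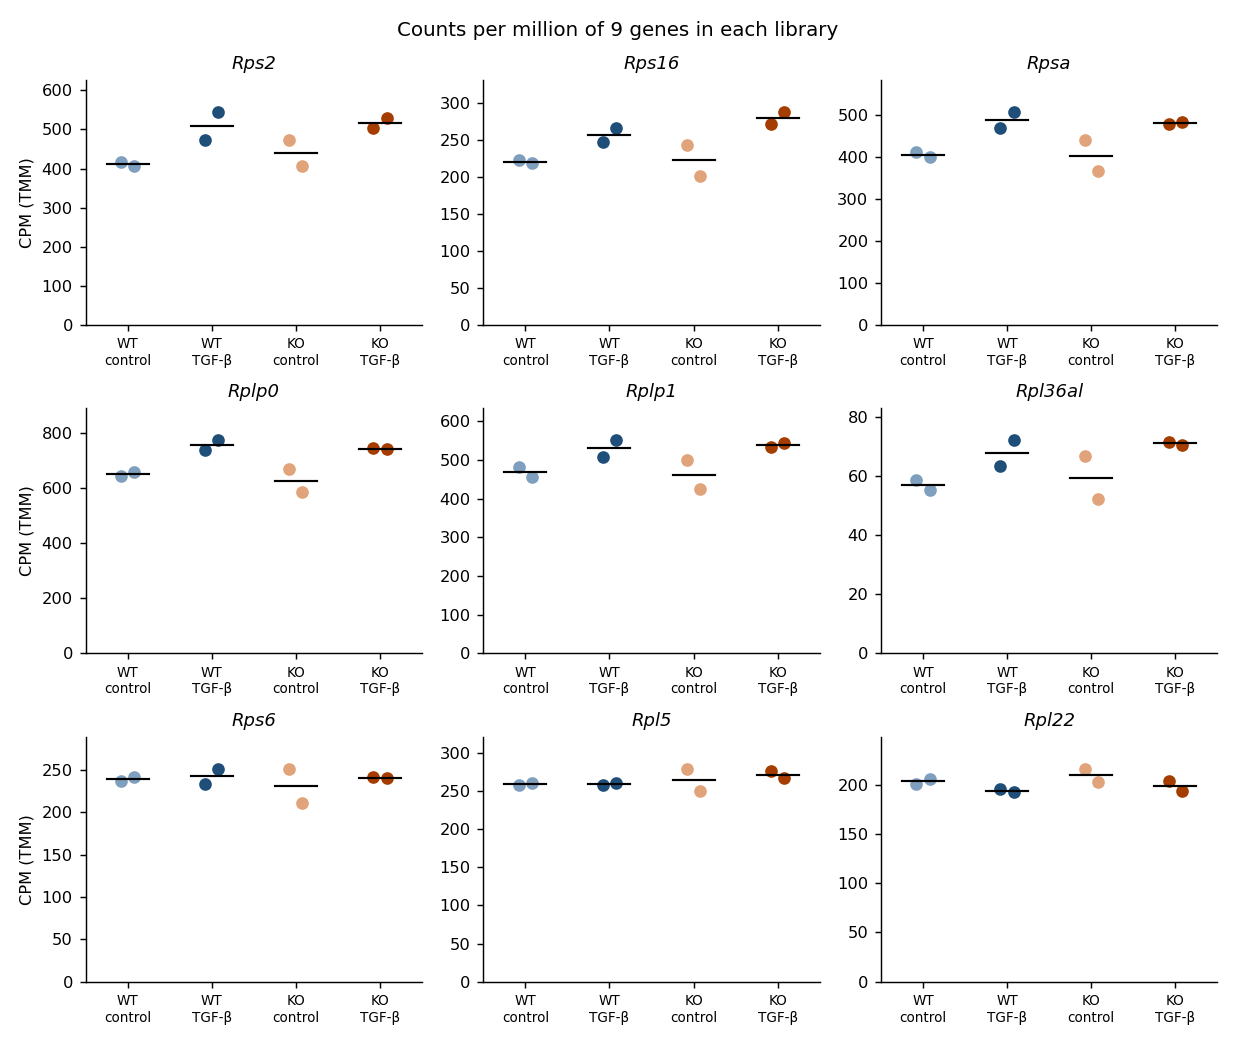
CPM of 9 ribosomal protein genes in each of 8 libraries (points) with the mean of each group (bar), on axes that start at 0. In Rps2, Rps16, Rpsa, Rplp0, Rplp1 and Rpl36al the TGF-β libraries lie above the controls of the same genotype, whereas in Rps6 and Rpl5 they overlap them; in each of the 9 genes RGC-32 KO control replicate 1 is above replicate 2.

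Of the 6 paralogs or retrocopies that could be tested, 0 passed in any of the 5 comparisons. Rpl22l1, which can take the place of Rpl22, had 1.31 to 1.84 times the FPKM of Rpl22 and 19.7% to 26.8% of its counts, so the order of the pair turns with the assigned length. It had 50.42 and 49.53 CPM in WT control and 40.85 and 51.60 in WT TGF-β. The RGC-32 KO values were 56.90 and 40.01 without and 45.16 and 49.80 with TGF-β. Its groups overlapped and its intervals were the widest, with log2 fold changes of -0.11 (-0.50 to 0.27) and -0.03 (-0.41 to 0.36). The latter was 0.23 without control replicate 1 and -0.26 without replicate 2. Rpl22 itself had -0.07 (-0.20 to 0.06) and -0.08 (-0.21 to 0.05). Rpl36al held 61.2% to 78.6% of the counts of Rpl36a and 0.84 to 1.11 times its FPKM, at 58.80 and 55.26 CPM in WT control and 63.24 and 72.12 in WT TGF-β. The RGC-32 KO libraries had 66.66 and 52.08 CPM untreated and 71.62 and 70.48 treated. Its TGF-β libraries were above its controls in either genotype, and its log2 fold changes were 0.25 (-0.02 to 0.51) and 0.26 (-0.01 to 0.53), where Rpl36a had -0.02 and 0.12. In RGC-32 KO it was 0.43 without control replicate 1, past the test, and 0.09 without replicate 2, and Rpl36a was 0.21 and 0.02. Rpl7l1, which acts in ribosome assembly, held 19.01% to 20.42% of the counts of Rpl7 and had 0.01 and 0.07, with -0.03 and 0.01 for Rpl7.

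Rps27l, a target of p53, had 101.2 and 83.55 CPM in WT control and 97.29 and 106.5 in WT TGF-β. For RGC-32 KO these were 93.20 and 77.23 without and 101.8 and 100.3 with TGF-β. The log2 fold changes were 0.14 (-0.12 to 0.40) and 0.25 (-0.02 to 0.51). The groups overlapped in WT and were apart in RGC-32 KO, where the value was 0.37 without control replicate 1 and 0.12 without replicate 2, neither past the test. Rpl37rt, a transcribed retrocopy of Rpl37, held 14.0% to 15.4% of its partner's counts, and Rps4l 2.39% to 3.05% of those of Rps4x. Their log2 fold changes were -0.03 and 0.25 for Rpl37rt and 0.13 and 0.21 for Rps4l, where Rpl37 had 0.01 and 0.13 and Rps4x -0.06 and 0.01. The RGC-32 KO value of Rpl37rt was 0.38 without control replicate 1, past the test, and 0.10 without replicate 2, and that of Rps4l was 0.22 and 0.18. Reads of such copies can match their partners, and how the counts treated reads with several matches is not given in the sources used here, so these shares are uncertain. Rpl39l, a paralog known from testis, had 3 and 8 counts in WT control and 2 and 2 in WT TGF-β. Its RGC-32 KO counts were 11 and 7 without and 5 and 3 with TGF-β, beside 2018 to 2406 counts of Rpl39.

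The lack of RGC-32 was not accompanied by a detected change in these mRNAs. Between untreated RGC-32 KO and WT astrocytes, 0 of 79 genes were higher and 0 lower by edgeR, against 0.0296% and 0.0074% of all genes, and 0 had an unadjusted p under 0.05, against 6.84%. The counts were also 0 in all 24 alternatives, DESeq2 and limma-voom among them. The log2 differences, RGC-32 KO minus WT, ran from -0.13 (Rps4l) to 0.10 (Rps2), with a median of -0.01, and 73 of 79 intervals lay within 0.3 of no difference. The RGC-32 KO control libraries lay on either side of the WT control libraries, since the median was -0.14 without replicate 1 of RGC-32 KO control and 0.09 without replicate 2. Rps4l was the 1 gene whose groups did not overlap, at 11.80 and 12.17 CPM in WT and 11.16 and 10.71 CPM in RGC-32 KO, against 15.5% of all genes above and 17.4% below.

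With TGF-β in both genotypes, again 0 genes were higher and 0 lower by edgeR, against 0.0222% and 0.0296% of all genes, and in 24 alternatives, and 0 had an unadjusted p under 0.05, against 11.7%. The median difference was 0.04, RGC-32 KO above WT, with a range from -0.06 (Rps26) to 0.19 (Rpl37rt). Both RGC-32 KO libraries were above both WT libraries in 39 of 79 genes and below in 1, against 23.9% and 22.4% of all genes. Rpl37rt had 17.30 and 17.39 CPM in treated WT and 19.76 and 19.82 CPM in treated RGC-32 KO astrocytes, and the log2 difference of 0.19 (-0.07 to 0.45) had an adjusted p of 0.561 by edgeR. With the length trend removed the median difference was -0.01. The response to TGF-β differed between genotypes in 0 of 79 genes, where all genes gave 0.0% in either direction and 0 of 79 had an unadjusted p under 0.05, against 2.82%. The interaction values ran from -0.08 to 0.27, with a median of 0.07, and 22 of 79 intervals lay within 0.3 of no difference and 77 within 0.6. This comparison uses the RGC-32 KO control libraries, and its median was 0.17 without replicate 1 and -0.04 without replicate 2.

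The other genes of translation were read from 5 lists, whose counts stand beside the shares of all genes tested that rose and fell, 18.6% and 14.3% in WT and 16.6% and 11.8% in RGC-32 KO. Of 15 elongation factors and further mRNAs with the pyrimidine motif, 1 rose in WT and 4 in RGC-32 KO, and 0 fell, with medians of 0.09 and 0.12. The largest values were those of Eef1g, a subunit of the factor that recharges the elongation factor, at 0.32 and 0.30, which passed in both. Rack1, a scaffold on the small subunit, had 0.23 in WT (adjusted p = 0.058, edgeR), and Hnrnpa1 had 0.27 in RGC-32 KO (adjusted p = 0.222). Of 28 initiation factors, 9 rose and 1 fell in WT, and 8 rose and 1 fell in RGC-32 KO. Eif4g1, the scaffold of the cap-binding complex, rose by 0.50 and 0.465. Eif2s2 rose by 0.31 and 0.30 and Eif2s1 by 0.30 and 0.38, both subunits of the factor that brings the initiator tRNA.

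Of 32 genes of ribosome assembly and rRNA transcription, 8 rose and 1 fell in WT, and 7 rose and 0 fell in RGC-32 KO. Over all genes tested, 18.6% rose and 14.3% fell in WT, and 16.6% rose and 11.8% fell in RGC-32 KO. Bop1, needed to process the rRNA of the large subunit, rose by 0.38 and 0.48. Rrp12 rose by 0.29 and 0.27 and Rrp9 by 0.28 and 0.31. Of 12 genes that control the translation of ribosomal protein mRNAs, 6 rose in WT and 3 in RGC-32 KO, and 0 fell. The response differed between the genotypes in 0 of the 12 by the interaction test of edgeR. Larp1 and Mtor each rose by 0.31 and Rptor by 0.26 in WT, and these genes were not called in RGC-32 KO. Eif4ebp1, a repressor of cap-dependent translation that mTOR inactivates, rose by 0.48 and 0.35. Larp4 rose by 0.38 in WT, and Rheb, an activator of mTOR, by 0.30 in both genotypes. Of 68 mitochondrial ribosomal proteins, which make up a separate ribosome, 1 rose and 2 fell in WT, and 3 rose and 2 fell in RGC-32 KO. Mrpl14 fell by 0.30 and by 0.33 on the log2 scale, and Mrpl53 rose by 0.38 in RGC-32 KO, while Mrps28 had 0.26 in WT (adjusted p = 0.104 by edgeR). These counts turned with the scaling. With total counts alone, 1 initiation factor rose and 8 fell in WT, 0 assembly genes rose and 4 fell, and 0 mitochondrial ribosomal proteins rose and 22 fell. The numbers with 1 library left out also changed in RGC-32 KO, where without control replicate 2 the test called higher 3 initiation factors, 3 assembly genes and 0 in each of the other 3 lists. Without control replicate 1 it called higher 7 initiation factors, 5 assembly genes, 4 genes with the pyrimidine motif, 2 that control translation and 2 mitochondrial ribosomal proteins.

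Rgcc had 80 and 94 counts in WT control and 215 and 362 in WT TGF-β, and 61, 28, 64 and 26 in the RGC-32 KO libraries, so transcripts of the targeted gene were still counted there. The 10 astrocyte markers were present in every library, at a summed CPM of 4619 to 4847 in WT control and 3584 to 3705 with TGF-β, and of 5342 to 6004 and 4383 to 4716 in RGC-32 KO. With TGF-β, 7 of the 10 fell and 1 rose in WT, and 6 fell and 1 rose in RGC-32 KO. All 8 microglial markers were present too, at 899.7 to 1237, with 0 of 8 past the test in any comparison. The sum of 6 markers of meningeal fibroblasts was 3520 to 4189 in WT control and 7524 to 8660 in WT TGF-β, and 2686 to 2910 and 5537 to 5698 in RGC-32 KO, with 3 genes higher and 2 lower in WT and 3 higher and 1 lower in RGC-32 KO. Col1a1 and Col1a2 made up most of these sums. In WT, Col1a1 had 1606 and 1785 CPM in control and 3807 and 4627 with TGF-β. Pdgfrb was higher too, Dcn (305.9 and 332.3 against 213.6 and 201.8) and Foxc1 were lower, and Lum overlapped. Of the 4 ependymal markers measured, all fell with TGF-β in both genotypes. The sums for 7 markers of the oligodendrocyte lineage (286.3 to 376.1), 3 of neurons (95.24 to 136.7), 3 of endothelial cells (36.19 to 91.49) and 6 of proliferation (292.2 to 375.0) lay below those of the astrocyte, microglial and fibroblast lists. With TGF-β, 0 oligodendrocyte markers rose and 2 fell in WT, and 1 rose and 2 fell in RGC-32 KO. In each genotype, 1 neuron marker rose and 1 endothelial marker fell. Of the proliferation markers, 3 fell in WT and 0 in RGC-32 KO, and 0 rose. The part of these in the values of the ribosomal protein genes was not tested.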

How the data were processed

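RNA was sequenced without strand information. The authors deposited a table of raw read counts per gene symbol and a table of FPKM, and their processing notes name STAR, Cufflinks, DESeq and the build mm10. The program that made the counts is not given in the sources used here. Deposited tables of the authors' own fold changes and p-values were not used. Of the symbols, 21 read as dates and 1 occurred again. The test was edgeR 4.0.16 (R 4.3.3) on the deposited counts. filterByExpr kept 13509 genes, 79 of the 80 ribosomal protein genes among them. TMM set the scaling, and the quasi-likelihood model, with 4 group means and without a block, took in all 8 libraries. P-values are two-sided and were adjusted by Benjamini-Hochberg over all genes tested. A log2 fold change is the first group minus the second, SE its standard error. FPKM served for levels and, as log2(FPKM + 1) and log2(FPKM + 0.1) with limma 3.58.1, for genes reaching 1 FPKM, as an alternative. DESeq2 1.42.0 and limma-voom were further alternatives. Gene coordinates and transcript lengths (99.2% of genes) came from GENCODE M21 on GRCm38, the assembly that mm10 names. Length trends were removed by loess (span 0.3) per library. The procedure was tested on simulated data in which genes varied independently. A shift shared by many genes, as between the RGC-32 KO control libraries, was not simulated.

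The chi-square per degree of freedom between replicates was 1.87 to 3.05 over the ribosomal protein genes, so replicates differed by more than counting noise. What a replicate number shares is not stated, and p-values measure the spread between these libraries. The genes and lists were chosen with earlier results of these data known. Named were the paralogs with their partners, the stalk, Rpl5, Rpl11, Rps6, Rpl13a, Rps19, Rpsa and Rps27a, genes that passed a test, the 3 highest and 3 lowest per length, and from each list the 2 largest changes. Rpl21, Rps3a1, Rps20, Rps26, Rps15, Rpl6, Larp1, Mtor, Rptor, Rps6ka5 and Rps6kb1 were named after their values were seen.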

Additional observations from a re-analysis of the deposited data

How the results depend on the processing

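The number of genes called higher with TGF-β in WT, 1 in the reported fit, was 0 with 4 libraries, RLE, upper quartile or total-count scaling, with the replicate number as a block and with either FPKM pseudocount, and 11 with the length trend removed, whether or not it was estimated with the ribosomal protein genes. It was 0 to 5 with 1 library left out, 5 without RGC-32 KO control replicate 2 and 4 without its replicate 1. In RGC-32 KO, the 1 gene became 0 with 4 libraries, upper quartile or total-count scaling and with either FPKM pseudocount, 2 with limma-voom, 16 with the length trend removed, 17 with that trend estimated without the ribosomal protein genes, and 0 to 27 with 1 library left out. Genes called lower in WT, 0 in the reported fit, were 1 with upper quartile scaling, 8 with total counts alone and 2 with FPKM at either pseudocount, and in RGC-32 KO 2 with total counts alone and 5 with FPKM at either pseudocount. With 1 library left out they were 0 in both genotypes. No gene passed 0.6 in any alternative, and the genotype and interaction comparisons called 0 genes in all of them. The lone library of a group was assumed to vary like the other groups. DESeq2, the fit without a filter and most fits with 1 library left out held 80 ribosomal protein genes, as Rpl39l was then included. Without RGC-32 KO control replicate 1 there were 79.

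The replicate numbers were not taken to pair the libraries. Over all genes, same-numbered libraries deviated together between the genotypes (r = 0.49 in control and 0.25 with TGF-β), but in opposite directions between control and TGF-β (r = -0.34 in WT and -0.35 in RGC-32 KO) and in the remaining 2 pairs of groups (-0.51 and -0.48). The replicate block left 0 genes called higher in WT and 1 in RGC-32 KO, and together with the length trend removed 7 and 10. The crossed pairing, chosen after seeing the data like the trend estimated without the ribosomal protein genes, gave 4 and 11.

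The median log2 fold change in WT (0.04) was -0.0469 with upper quartile scaling, -0.11 with total counts alone, -0.0653 and -0.0655 with the FPKM pseudocounts, 0.1159 with the length trend removed, 0.1162 with the block added, 0.1242 with the trend from other genes, and -0.0089 to 0.0803 with 1 library left out. In RGC-32 KO (0.10) it was 0.0178 with upper quartile scaling, -0.0295 with total counts alone, -0.1028 and -0.1030 with FPKM, and -0.0191 to 0.2118 with 1 library left out. Between untreated genotypes it was -0.1378 to 0.0924, and with TGF-β 0.0062 to 0.0905, with 1 library left out, and with TGF-β -0.0059 with the length trend removed, -0.0060 with the block added and -0.0059 with the trend from other genes. Without the paralogs by symbol, the ribosomal protein genes took 1.8656% of counts in WT control and 1.7450% in WT TGF-β. Of the summed FPKM they took 6.991% and 7.0991% in WT and 7.0528% and 6.9807% in RGC-32 KO (untreated, then treated). The cause of these shifts was not tested. A share without mitochondrially encoded genes was not computed, because the count table has none. With 2 libraries a group, the 95% intervals of the TGF-β responses had a median half-width of 0.19 (log2).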

Other observations

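The rows left out by the rule on symbols held a few more transcripts. The processed pseudogene Rpl14-ps1 had 325 to 416 counts per library, Rps15a-ps6 had 92 to 116 and Rps19-ps3 had 26 to 50, and 0 of the 3 passed the edgeR test in any of the 5 comparisons. Among the kinases whose symbols begin with Rps6k, which phosphorylate ribosomal and other proteins, Rps6ka5, a kinase of the nucleus also called MSK1, fell with TGF-β in both genotypes. It had 307 and 380 counts in WT control and 266 and 200 in WT TGF-β. Its RGC-32 KO counts were 294 and 434 without and 209 and 180 with TGF-β. The log2 fold changes were -0.63 (SE 0.168, adjusted p = 0.0246) and -0.78 (SE 0.170, adjusted p = 0.0125) by edgeR. Rps6kb1, the kinase of Rps6, had 0.17 in WT (adjusted p = 0.0537, edgeR) and rose by 0.22 in RGC-32 KO (adjusted p = 0.0275).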
